A study of Mus musculus with 5 samples.

Results

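The mRNAs of interleukin 6, of its relatives leukemia inhibitory factor (Lif) and interleukin 11, of their receptors and of their intracellular relay and brakes were followed on 5 Affymetrix mouse arrays. The genes were Il6, Lif, Il11, Il6st, Osmr, Lifr, Stat3, Socs2, Socs3 and Socs4, and all probe sets that the array annotation assigns to one of these symbols alone were taken. This gave 31 of 45101 probe sets, for 10 of 18193 genes with a probe set of their own. None of the 31 was shared with another gene.

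The cytokines of this family bind to a receptor complex that contains gp130, the product of Il6st, often together with a cytokine-specific chain such as the LIF receptor or the oncostatin M receptor. Janus kinases bound to the receptor then phosphorylate STAT3, which moves to the nucleus and activates transcription, among others of Socs3. SOCS proteins shut the receptors off again. Il6 mRNA is short-lived and carries AU-rich elements (AREs) in its 3' untranslated region, and AUF1, the product of Hnrnpd, is one of the proteins that bind AREs.

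The cells were NIH/3T3, a line of mouse embryonic fibroblasts, infected with retroviral vectors for the mifepristone-inducible GeneSwitch system and for AUF1 p42 with an amino-terminal myc tag, and selected with blasticidin in the presence of mifepristone. Ribonucleoprotein immunoprecipitates (RNP-IPs) were collected on anti-c-myc agarose beads, 2 from cells labelled as induced with 1 nM mifepristone for 24 h and 2 from the same cells labelled as not induced, and 1 array was hybridized with total RNA. The cells of both RNP-IP groups thus carried both vectors and had met mifepristone during selection. The total RNA is labelled as coming from the p42-expressing cells, with no word on mifepristone in its title or source. The study compared the RNP-IPs to find mRNAs bound by AUF1 p42, with Il6 as a known target. Il6 therefore served as a check in the study, and this gene, Stat3 and Socs4 are not an independent choice, since these arrays were known when the genes were picked. The study calls the RNP-IPs of a group independent without saying whether they came from separate cultures, so the p-values measure the spread between these arrays, which may be technical.

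A pair of facts on the arrays touches all values. Hnrnpd, the gene of AUF1, read 6.72 and 7.39 in the labelled-induced RNP-IPs, 11.35 and 11.85 in the labelled-uninduced pair and 10.60 for total RNA. The labels would put the vector's AUF1 mRNA highest in the labelled-induced pair, where Hnrnpd was lowest. An RNP-IP signal also depends on what the beads kept, and the reason was not tested. Il6, the study's known target, was higher in the labelled-induced arrays, as given below. Where the Hnrnpd probe sets lie relative to the vector's AUF1 sequence is a point the sources used here do not settle. The groups are therefore named by their labels throughout. In addition, the 5' control of Gapdh read 4.24 in labelled-induced RNP-IP 2 and 3.65 in labelled-uninduced RNP-IP 1, while the remaining 3 arrays read 6.93 to 8.18. The values of Il6 and its family are given also within arrays of like 5' signal. Fibroblast markers were present (10 of 10 above log2 5, summed log2 level 14.94 to 15.04 in the labelled-induced RNP-IPs and 15.14 to 15.39 in the controls). Of 8 macrophage and blood markers 2, Cd14 and Cd3e, reached log2 5 in any array (summed level 7.48 to 7.68 against 7.19 to 7.21). The largest log2 differences from the controls were positive, with 0.80 for Cd14, 0.795 for Cd68, 0.43 for Cd3e and 0.32 for Ptprc. The others measured lay between -0.12 and 0.04. Of 9 epithelial and endothelial markers 1 reached log2 5 in any array (7.78 to 7.79 against 7.64 to 7.84). Whether these small shifts bear on the values below was not tested.

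Signals are log2 values normalized by RMA, and a difference of 1 means a factor of 2 between arrays. They are compared for one probe set between arrays only, since probe sets differ in how brightly they hybridize. A signal under log2 5 was taken as not well above background. Where one side of a comparison lay under 5 in every array, its fold is a bound, written "at least". Of the 31 probe sets, 16 reached log2 5 in at least 1 array, for 8 of the 10 genes, and 9 did so in all 5. The other 15 lay between 2.92 and 4.73 in all arrays. The study's own rule for a call was kept, which asks for 3-fold or more together with an adjusted p below 0.5, a lenient limit. The adjusted p is from limma, with the Benjamini-Hochberg procedure over all probe sets.

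**Figure D1:**
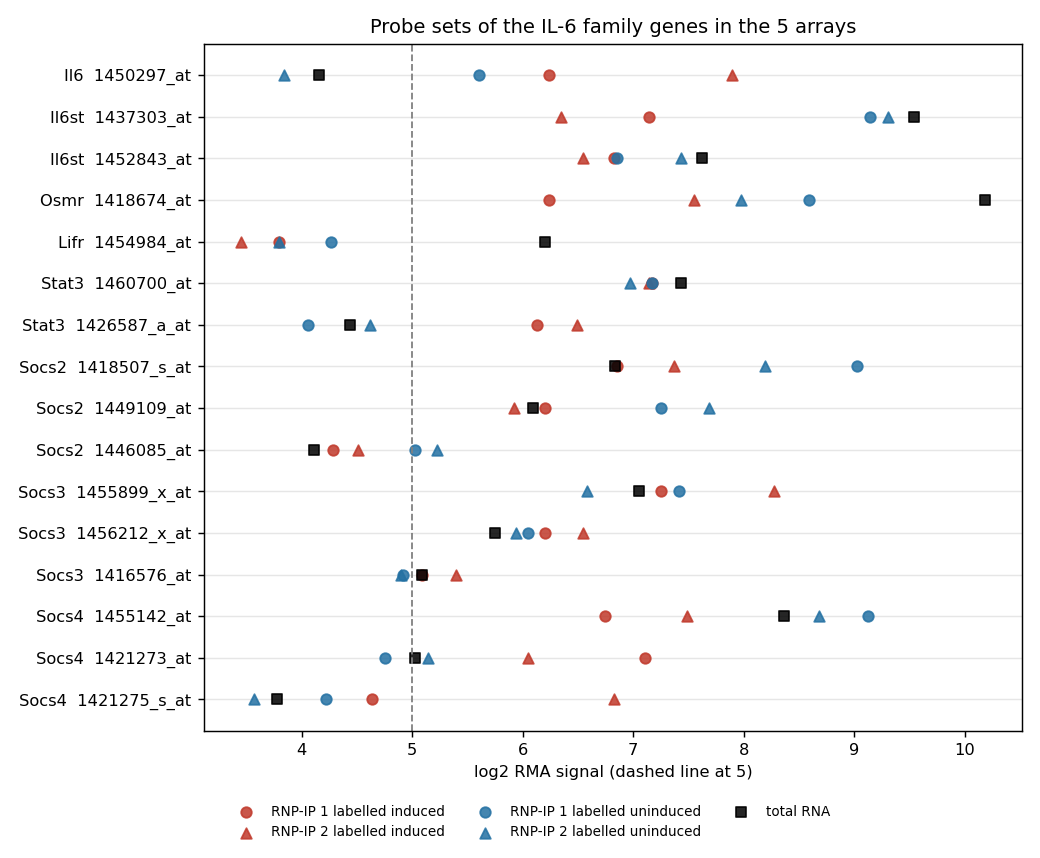
Log2 RMA signal (horizontal axis) of the 16 probe sets that reached log2 5 in at least 1 array, with 1 point for each of the 5 arrays (red, labelled-induced RNP-IPs; blue, labelled-uninduced RNP-IPs; black, total RNA; circles and triangles, replicates 1 and 2). Il6 and the Stat3 probe set 1426587_a_at have both red points to the right of all others, and the Il6st probe set 1437303_at has both to the left.

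Against the labelled-uninduced RNP-IPs and total RNA as one group, 3 of the 31 probe sets passed as higher in the labelled-induced RNP-IPs, namely Il6, 1 probe set of Stat3 and 1 of Socs4. This is 9.68% of them, beside 1.16% of all probe sets. Called lower were 2 (6.45%, beside 1.66% of all), 1 of Il6st and 1 of Socs4, and 26 were not called. None passed an adjusted p under 0.05, which no probe set on the array did, and 7 of the 31 had an unadjusted p under 0.05, beside 10.7% of all probe sets. For 8 probe sets (25.8%, beside 11% of all) both labelled-induced arrays exceeded all 3 controls, and for 4 (12.9%, beside 10.6%) they lay under them. Of these 8, 3 were under log2 5 in every array. The shares describe genes that were picked with earlier results known. Of the 16 brighter probe sets, total RNA was the highest array for 5 (17.9% of all probe sets) and the lowest for 3 (21.1%). The median difference of the 16 brighter probe sets was -0.21 on the log2 scale, beside 0.00 for all probe sets, dim ones included. Of these 16, Lifr 1454984_at, Stat3 1426587_a_at, Socs2 1446085_at and Socs4 1421275_s_at reached log2 5 in a single group only. Over all genes that reached log2 5 in any array, with 1 probe set per gene, the median was -0.13. Against the labelled-uninduced RNP-IPs alone, 2 were called higher (Stat3 and Socs4; 1.23% of all probe sets were) and 2 lower (Il6st and Socs4; 1.91% of all). This comparison shares its arrays with the first.

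**Figure D2:**
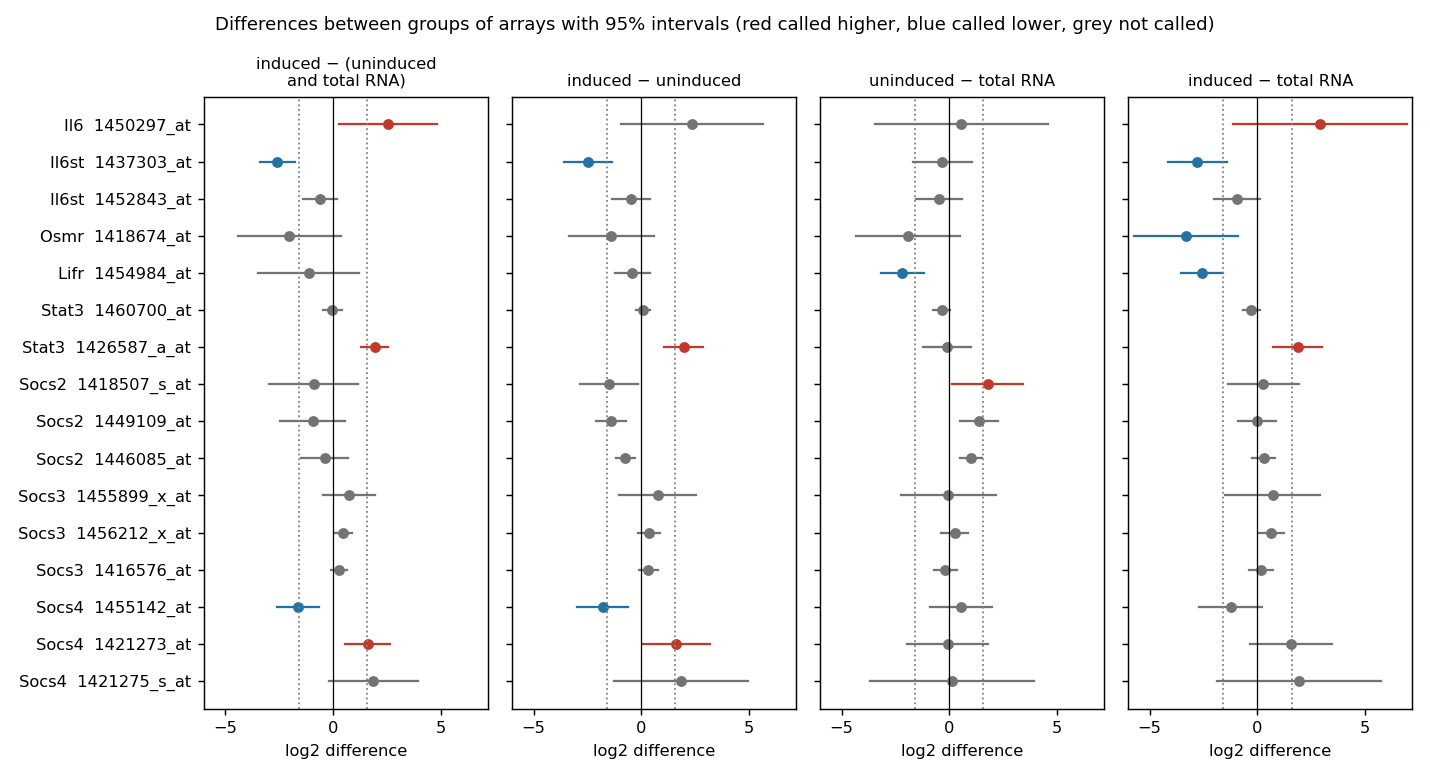
Log2 difference between groups of arrays (point) with its 95% interval from limma (line) for the same 16 probe sets in 4 comparisons that share arrays; red was called higher, blue lower and grey not called, and dotted lines mark 3-fold. The probe sets of Il6st and Stat3 called in the first comparison are called in the same direction in the second, whereas the interval of Il6 crosses 0 there.

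Il6 encodes the cytokine itself, a signal of inflammation that fibroblasts also secrete. Its only probe set, 1450297_at, read 6.24 and 7.90 in the labelled-induced RNP-IPs, 5.60 and 3.84 in the labelled-uninduced pair and 4.15 for total RNA. Both arrays labelled induced were above all controls, but replicates within a group lay as far apart as 1.66 and 1.77. The difference was 2.54 on the log2 scale (SE 0.81, 95% interval 0.27 to 4.81), a 5.81-fold higher signal, and it was called (adjusted p = 0.408). Against the labelled-uninduced RNP-IPs alone it was 2.35 (SE 1.01, adjusted p = 0.592) and not called. Against total RNA, where Il6 was not well above background, the signal in the labelled-induced RNP-IPs was at least 4.19-fold higher and called (adjusted p = 0.488), with a 95% interval of the measured log2 difference from -1.12 to 6.95. That call was lost when any 1 of the 4 RNP-IPs was left out.

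In each group Il6 was higher in the array with the low 5' Gapdh signal. Within arrays of like 5' signal the difference between labelled induced and uninduced was 2.40 for the pair of high and 2.30 for the pair of low signal, and without both arrays of low signal it was 2.24 against the controls (adjusted p = 0.352). The call rested on single arrays as well. It was lost without labelled-induced RNP-IP 2 (difference 1.71), without labelled-uninduced RNP-IP 2 (2.19) and without total RNA (2.35), while the sign remained the same. Over 13 alternative treatments of the data Il6 was called in 8, with adjusted p from limma between 0.128 and 0.802. Leaving out total RNA and using the labelled-uninduced RNP-IPs alone as controls gave the same result, which is counted under both names. A block of crossed replicates and the run without both arrays of low signal were added after values were seen, and both called Il6.

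Lif and Il11 encode cytokines that act through the same gp130 chain. Neither was well above background. The 2 probe sets of Lif stayed between 3.67 and 4.27 in all arrays and the 1 of Il11 between 4.06 and 4.73, so that a difference in these mRNAs was not measurable here.

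Among the receptor chains, 1 probe set was called lower. Il6st encodes gp130, the chain shared by nearly the whole family. Its probe set 1437303_at read 7.15 and 6.35 in the labelled-induced RNP-IPs, 9.14 and 9.31 in the labelled-uninduced pair and 9.54 for total RNA. The groups did not overlap, and the signal was 5.99-fold lower in the labelled-induced RNP-IPs (log2 difference -2.58, SE 0.29, 95% interval -3.40 to -1.77, adjusted p = 0.116). It was called lower when any 1 array was left out (-2.98 to -2.18), within arrays of like 5' signal it was -2.16 and -2.80, and against the labelled-uninduced RNP-IPs alone it was -2.48 (adjusted p = 0.206). The labelled-uninduced RNP-IPs and total RNA differed by -0.32 (SE 0.42, adjusted p = 0.952).

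A second probe set of Il6st, 1452843_at, read 6.83 and 6.55 in the labelled-induced RNP-IPs, 6.86 and 7.43 in the labelled-uninduced pair and 7.63 for total RNA. The arrays labelled induced were again the lowest, but by 0.03 only from the nearest control. The difference was -0.62 (SE 0.28, 95% interval -1.39 to 0.16, adjusted p = 0.603) and not called. The other 2 probe sets of Il6st did not exceed 4.16.

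Osmr encodes the chain that binds oncostatin M together with gp130. Its probe set 1418674_at read 6.23 and 7.55 in the labelled-induced RNP-IPs, 8.59 and 7.98 in the labelled-uninduced pair and 10.19 for total RNA. The order was thus labelled induced, labelled uninduced and total RNA, with no overlap between the groups. The difference to both controls was -2.03 (SE 0.85, 95% interval -4.41 to 0.36, adjusted p = 0.563) and was not called, and the step between the groups of RNP-IPs (-1.39, SE 0.61, adjusted p = 0.597) was not called either, except without labelled-induced RNP-IP 2. Against total RNA alone Osmr was called lower in the labelled-induced RNP-IPs (-3.30, SE 0.74, adjusted p = 0.265). From total RNA to the labelled-uninduced RNP-IPs the difference was -1.90 (SE 0.74, adjusted p = 0.549), not called, but called without either array labelled induced.

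Lifr encodes the receptor chain for LIF. Its probe set 1454984_at was above background in total RNA only, with 6.20, and read 3.79, 3.45, 4.27 and 3.79 in the 4 RNP-IPs. The signal was at least 2.30-fold lower in the labelled-uninduced RNP-IPs (adjusted p = 0.251) and in the labelled-induced RNP-IPs (adjusted p = 0.143) than in total RNA. Both were called, on 1 total RNA array that was assumed to vary like the RNP-IPs. Between both groups of RNP-IPs Lifr was near background, and nothing can be said of a difference. The dim probe sets of Osmr (2) and Lifr (2) stayed under 3.89 in all arrays.

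Beside Lifr, 1 probe set was called between the labelled-uninduced RNP-IPs and total RNA, the Socs2 probe set 1418507_s_at described below. Of all probe sets 0.891% were called higher there and 0.933% lower. Between the labelled-induced RNP-IPs and total RNA, 2 of the 31 were called higher (Il6 and Stat3, beside 1.53% of all) and 3 lower (Il6st, Osmr and Lifr, beside 3.07% of all). An RNP-IP signal depends both on how much of an mRNA the cells held and on how much of it the beads kept. With 1 total RNA array these cannot be told apart, nor can fewer cells that express an mRNA from less of it per cell.

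Stat3 encodes the transcription factor that carries the signal to the nucleus. Its 2 measurable probe sets did not run in parallel. On 1426587_a_at the signals were 6.13 and 6.49 in the labelled-induced RNP-IPs, 4.06 and 4.62 in the labelled-uninduced pair and 4.44 for total RNA. The control arrays were all under 5 and both arrays labelled induced over it, so the signal was at least 2.48-fold higher (log2 difference as measured 1.94, SE 0.22, adjusted p = 0.118). It was called higher in all 13 alternative treatments of the data in which the limit on the adjusted p was kept (1.60 to 2.12, adjusted p from limma between 0.0462 and 0.453). These are the treatments used for Il6, with the same repeat and the same later additions. Within arrays of like 5' signal the difference was 1.51 and 2.43.

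On the brighter probe set 1460700_at Stat3 read 7.17 and 7.14 in the labelled-induced RNP-IPs, 7.17 and 6.97 in the labelled-uninduced pair and 7.43 for total RNA. The groups overlapped, and the difference was -0.03 (SE 0.16, 95% interval -0.47 to 0.40, adjusted p = 0.954), an interval that lies inside 3-fold. The other 2 probe sets of Stat3 did not exceed 4.02.

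SOCS proteins are the brakes of the pathway. Socs3 is induced by STAT3 and binds to gp130 itself, and all its 3 probe sets reached log2 5. The brightest, 1455899_x_at, read 7.25 and 8.28 in the labelled-induced RNP-IPs, 7.41 and 6.58 in the labelled-uninduced pair and 7.05 for total RNA, which overlap. Its difference of 0.75 (SE 0.43, 95% interval -0.45 to 1.95, adjusted p = 0.683) was not called. On 1456212_x_at the arrays labelled induced (6.20 and 6.55) lay above the controls (6.05, 5.94 and 5.75), by 0.46 (SE 0.15, adjusted p = 0.426), well under the 3-fold limit. On 1416576_at all arrays lay between 4.90 and 5.40 (difference 0.27, SE 0.13, adjusted p = 0.627). The differences of Socs3 were thus positive on all 3 probe sets, also within arrays of like 5' signal (0.18 to 0.86), and none reached 3-fold. The suffix x marks probe sets in which some probes can match other transcripts.

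Socs2 encodes a SOCS protein best known for limiting growth hormone signalling. Its pattern was different, because the labelled-uninduced RNP-IPs were the highest arrays. On 1418507_s_at they read 9.03 and 8.19, against 6.86 and 7.37 in the labelled-induced RNP-IPs and 6.84 in total RNA. On 1449109_at they read 7.25 and 7.68, against 6.20 and 5.92 and, in total RNA, 6.09. On 1446085_at they reached 5.03 and 5.22, while the other 3 arrays were under 5 (4.28, 4.51 and 4.11). All 3 probe sets thus set the labelled-uninduced RNP-IPs apart from the rest, but 1446085_at counts among the brighter probe sets only through those arrays. This order was found for 4 of the 16 brighter probe sets, the other being Socs4 1455142_at. Of all probe sets, dim ones included, 8.19% had it.

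Compared with total RNA, Socs2 was called higher in the labelled-uninduced RNP-IPs on 1418507_s_at (log2 difference 1.77, SE 0.51, adjusted p = 0.433), a call that was lost without either of the arrays labelled induced, which only enter the estimate of the spread, and without labelled-uninduced RNP-IP 1. It was not called on 1449109_at (1.37, SE 0.27, adjusted p = 0.331), whose fold of 2.59 was under 3, but was called there without labelled-uninduced RNP-IP 1. Compared with the labelled-uninduced RNP-IPs, the signals in the labelled-induced RNP-IPs differed by -1.50 (SE 0.41, adjusted p = 0.390) and -1.40 (SE 0.22, adjusted p = 0.227), both under 3-fold. Each was called lower in 1 run that left out an array, 1418507_s_at without labelled-uninduced RNP-IP 2 and 1449109_at without labelled-uninduced RNP-IP 1. Within arrays of like 5' signal these differences were -1.33 and -1.66 on 1418507_s_at and -1.48 and -1.33 on 1449109_at. With total RNA among the controls the differences were -0.90 and -0.95 (adjusted p = 0.711 and 0.683). The labelled-induced RNP-IPs and total RNA differed by 0.28 and -0.03. The other 3 probe sets of Socs2 were not above 4.26. The probe sets 1418507_s_at and 1449109_at were designed on the same transcript.

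Socs4, a SOCS protein linked to the epidermal growth factor receptor, was called in both directions. On 1455142_at it read 6.75 and 7.49 in the labelled-induced RNP-IPs, 9.13 and 8.69 in the labelled-uninduced pair and 8.36 for total RNA, a signal 3.05-fold lower in the labelled-induced RNP-IPs (log2 difference -1.61, SE 0.35, 95% interval -2.58 to -0.64, adjusted p = 0.253). On 1421273_at it read 7.11 and 6.05 in the labelled-induced RNP-IPs, 4.75 and 5.14 in the labelled-uninduced pair and 5.02 for total RNA, a signal 3.05-fold higher (1.61, SE 0.37, 95% interval 0.57 to 2.64, adjusted p = 0.268). In neither case did the groups overlap. Both folds were just over the limit of 3.

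Another probe set of Socs4, 1421275_s_at, ran in the direction of 1421273_at. It read 4.63 and 6.82 in the labelled-induced RNP-IPs, 4.22 and 3.57 in the labelled-uninduced pair and 3.78 for total RNA. The difference as measured was 1.87 (SE 0.74, 95% interval -0.20 to 3.94, adjusted p = 0.524) and not called, and the interval includes no difference. No bound on the fold is given, because labelled-induced RNP-IP 1 itself lay under log2 5. It was above background in labelled-induced RNP-IP 2 only, and without labelled-induced RNP-IP 1 it was called (2.97). Its adjusted p lay near the limit, and it was called in 5 of 12 alternative treatments of the data (adjusted p between 0.286 and 0.818). The fourth, 1421274_at, stayed under 4.16. These 3 were designed on one cDNA and 1455142_at on another. The calls were lost without labelled-induced RNP-IP 1 (-1.24 on 1455142_at and 1.08 on 1421273_at), without labelled-uninduced RNP-IP 1 (-1.41 and 1.50) and without labelled-uninduced RNP-IP 2 (-1.63 and 1.69). Within arrays of like 5' signal the differences kept their signs, with -1.94 and -1.64 on 1455142_at and 1.97 and 1.30 on 1421273_at.

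**Figure D3:**
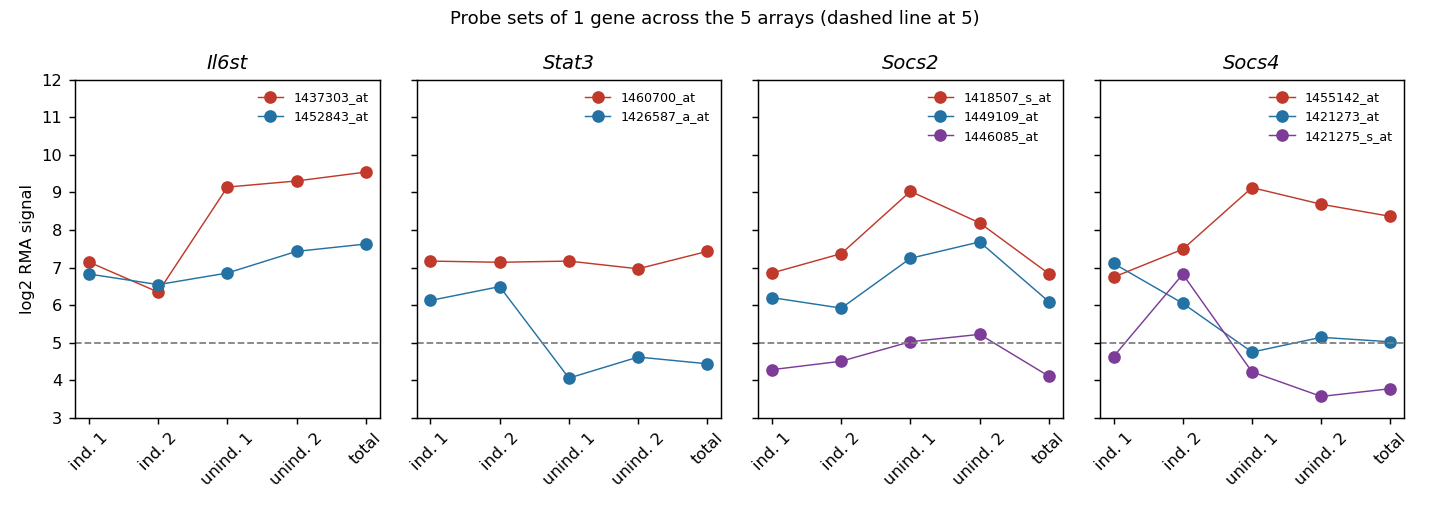
Log2 RMA signal (vertical axis) in each of the 5 arrays (horizontal axis; ind., labelled-induced RNP-IPs; unind., labelled uninduced) for the measurable probe sets of Il6st, Stat3, Socs2 and Socs4; lines join the points of a probe set and the dashed line marks log2 5. The probe sets of Socs2 move together, those of Socs4 cross, and those of Stat3 and Il6st draw together in the labelled-induced RNP-IPs.

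Whether probe sets of one gene differed was tested on the difference between both signals in each array, for 11 pairs within Il6st, Stat3, Socs2, Socs3 and Socs4. The exact two-sided permutation test used here doubles the smaller of its one-sided p-values. With 2 arrays against 3 it thus cannot give a p under 0.2, so that no pair could pass. In 5 pairs the arrays labelled induced did not overlap with the controls (exact permutation p = 0.2, 0.44 adjusted over the 11 pairs). The share over all same-gene pairs on the array was not computed, so this count has nothing to be compared with. The pairs are not independent, since some share a probe set. Stat3 1426587_a_at and Socs2 1446085_at reached log2 5 only in the group where they were high. For Socs4 the differences of 1455142_at and 1421273_at were 3.22 apart on the log2 scale, and those of 1455142_at and 1421275_s_at 3.48. For Stat3 and for Il6st the gap was 1.97, and for the Socs2 probe sets 1449109_at and 1446085_at 0.56. The 3 pairs of Socs3 overlapped.

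**Figure D4:**
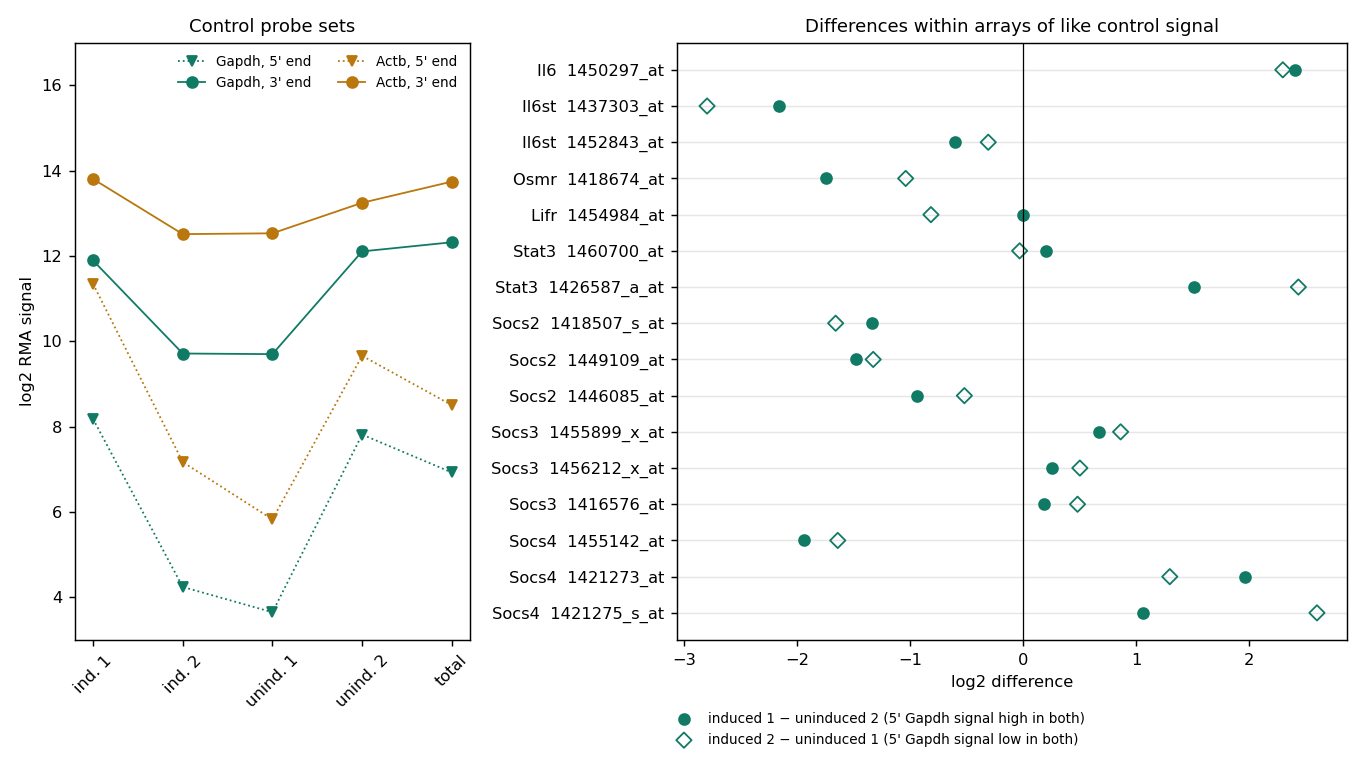
Left, log2 RMA signal of the control probe sets at the 5' end (triangles, dotted) and the 3' end (circles, solid) of Gapdh and Actb in the 5 arrays. Right, log2 difference of an RNP-IP labelled induced minus one labelled uninduced for 16 probe sets. It was taken within the pair of arrays with high (filled circles) and with low (open diamonds) 5' Gapdh signal. For 14 of 16 both points lie on the same side of 0, with no share over all probe sets to compare.

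Of the 16 brighter probe sets, 14 had differences of one sign in both pairs of arrays with like 5' signal. The exceptions were Lifr, which was near background in the RNP-IPs, and Stat3 1460700_at (0.21 and -0.03). The 5' signal of Actb ran with that of Gapdh, with 7.17 and 5.83 in the arrays of low signal and 8.50 to 11.35 in the others.

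The rest of the gp130 pathway was looked at with 1 probe set per gene, that of the highest mean signal. By this measure 1 of the 10 genes above was called higher (Il6) and 2 lower (Il6st and Socs4). Of all 18193 genes 1.32% were called higher and 2.36% lower. The median difference was -0.48, beside 0.00 over all genes. Among genes that reached log2 5 in any array it was -1.02 for 8 of the 10 and -0.13 over all. These 8 include Lifr (-1.13), which reached log2 5 in total RNA only and was not measurable in the RNP-IPs. The median of so few genes leans on it, and no shift of the family is read from it. Among the other ligands of the family, 5 of 8 genes were measured, 2 above background, and none was called. Ctf1 (cardiotrophin 1) differed by 0.77 and Clcf1 (cardiotrophin-like cytokine) by -0.42. The 4 other receptor chains measured, among them Il6ra for IL-6 itself and Cntfr, were under log2 5 in every array.

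Of 9 Janus kinases and other STATs, 5 were above background and 1 was called on its brightest probe set. Stat6, which serves interleukin 4, read 5.66 and 5.73 in the labelled-induced RNP-IPs, 6.73 and 7.56 in the labelled-uninduced pair and 7.96 for total RNA (difference -1.72, adjusted p = 0.275). Jak1, the main kinase at gp130, differed by 0.82 and Stat5b by -0.78, neither called. A further probe set of the kinase Jak2, 1421065_at, was called higher, with 6.48 and 6.11 in the labelled-induced RNP-IPs and 4.30 to 5.36 in the controls (1.61, adjusted p = 0.293), while its brightest differed by 0.49. None of the 12 other brakes was called on its brightest probe set, with 11 above background. Pias2 differed by -1.07, the phosphatase Ptpn1 by -0.99, Socs6 by 0.78 and Socs5 by 0.64. Further probe sets of 3 brakes were called. For Ptpn2, a phosphatase of JAKs and STATs, 1425197_at read 8.02 and 8.15 in the labelled-induced RNP-IPs and 4.57 to 5.17 in the controls (3.14, adjusted p = 0.0774), against 0.06 on its brightest. Called lower were Socs5 1423350_at (-2.87, adjusted p = 0.174) and Pias1 1455486_at (-1.68, adjusted p = 0.385).

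The branch from gp130 through the phosphatase SHP2 to Ras had 7 genes, all above background, with 1 called in each direction. Gab2, a docking protein, read 5.33 and 5.80 in the labelled-induced RNP-IPs, 7.53 and 8.06 in the labelled-uninduced pair and 8.03 for total RNA (difference -2.30, adjusted p = 0.113). Grb2, the adaptor that links receptors to Ras, read 8.46 and 8.03, then 5.52 and 6.90, then 6.36 (1.98, adjusted p = 0.278). For both genes the groups did not overlap. Their further probe sets were near background. The median of the 7 was -0.15.

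**Figure D5:**
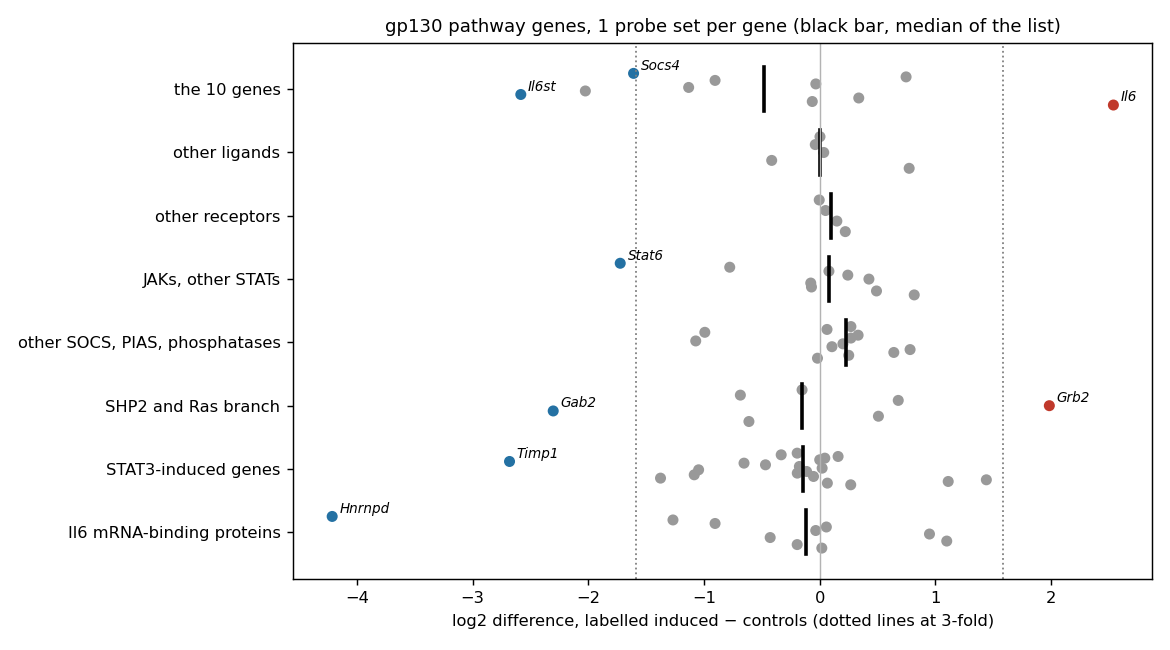
Log2 difference between labelled-induced RNP-IPs and the controls (horizontal axis) for the genes of each list, 1 probe set per gene (points; red called higher, blue called lower, grey not called); black bars are list medians and dotted lines mark 3-fold. All list medians lie between -0.48 and 0.23, while called genes are found on both sides.

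Of 20 genes known to be induced by STAT3, 15 were above background, and the 1 that was called was lower. Timp1, an inhibitor of matrix metalloproteinases, read 6.44 and 7.02 in the labelled-induced RNP-IPs, 9.05 and 8.83 in the labelled-uninduced pair and 10.36 for total RNA (difference -2.68, adjusted p = 0.249). The transcription factors Cebpd (1.44, adjusted p = 0.139), Cebpb (1.11, adjusted p = 0.570) and Myc (-1.38) were not called. The median of the list was -0.14.

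Proteins known to bind Il6 mRNA or its AREs were encoded by 10 genes, of which Hnrnpd was the one called (-4.21, adjusted p = 0.114). Rc3h2 (-1.27), a relative of Roquin, and Zfp36l1 (1.10), a relative of tristetraprolin, were not called, and Zc3h12a, the RNase Regnase-1, was at 3.74 to 3.77. Among the fibroblast markers 1 of 10 was called, Pdgfrb (-1.59, adjusted p = 0.426), as was a further probe set of Vim (-1.99, adjusted p = 0.0670), and of the macrophage, blood, epithelial and endothelial markers none was. Cd14, a co-receptor that fibroblasts can also make, differed by 0.80 and was not called, at 6.21 and 5.81 in the labelled-induced RNP-IPs and 5.15 to 5.25 in the controls.

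Finally, the genes whose 5 signals ran most like those of Il6 were sought among 18192 others, by the Euclidean distance between values centred on their mean. Nearest were Selenop (distance 0.77), 3110039M20Rik (0.78), Nr4a2 (0.99), Fkbp1b (1.02) and 5530601H04Rik (1.02). Selenop, which encodes a selenium transport protein, read 8.20 and 9.62 in the labelled-induced RNP-IPs, 6.63 and 5.40 in the labelled-uninduced pair and 5.31 for total RNA. Nr4a2, an immediate early transcription factor, read 7.03 and 8.10, then 6.49 and 5.37, then 4.67. All 5 genes share with Il6 the order of the 3 highest arrays, labelled-induced RNP-IP 2, then 1, then labelled-uninduced RNP-IP 1. They so also share the higher signal in the array of low 5' Gapdh signal within each group. Both follow largely from the choice of genes by nearness to these same values. This likeness is a description over 5 arrays.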

How the data were processed

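RNA of the 5 samples was amplified, labelled and hybridized to Affymetrix mouse arrays by the authors, who deposited log2 values normalized by RMA (per the submitters' processing notes, version not stated) for all 45101 probe sets, 64 of them array controls. All 5 columns were mapped to samples by their labels, and the array medians lay between 3.77 and 3.83. The number of arrays limits the precision. Gene names came from an array annotation of 2016 (34958 probe sets with 1 gene, 932 with several, 9211 with none), brought up to date by the RefSeq table of GRCm38.p6, from which no coordinates were taken.

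Differences were computed by moderated linear models (limma 3.58.1, R 4.3.3) over all probe sets, in a fit with the labelled-uninduced RNP-IPs and total RNA as one group, as in the study's methods (3 residual degrees of freedom, 0.962 prior), and in a fit with 3 groups (2 residual, 0.877 prior). The fits were tested on simulated data. Every probe set of the 10 genes is accounted for. From the pathway and marker lists, called genes and otherwise up to 4 with the largest difference could be named, with Hnrnpd, Gapdh and Actb as reference and the 5 genes nearest to Il6. The genes, lists and limits were chosen with earlier results of these data known. The alternatives were another centring, cyclic loess, a filter on dim probe sets, a trended prior, leaving out each array, other controls, replicate blocks and another probe set per gene. Sequences of 3' untranslated regions and proteins were not analysed here, so the planned count of AU-rich motifs was not run.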

Additional observations from a re-analysis of the deposited data

How the results depend on the processing

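At an adjusted p under 0.05 the number of the 31 probe sets called by limma was 0 in every comparison and direction. At an unadjusted p under 0.05 from limma, 7 passed against both controls (beside 10.7% of all probe sets) and 7 against the labelled-uninduced RNP-IPs (beside 11.5%). Between these and total RNA 5 passed (beside 10.9%), and between the labelled-induced RNP-IPs and total RNA 6 (beside 13.9%). Against both controls, 3 were called higher and 2 lower. Median centring, cyclic loess and a trended prior gave 4 higher, with Socs4 1421275_s_at added. Leaving out 1 array gave 1 to 3 higher and 1 to 2 lower, cyclic loess gave 1 lower (the Socs4 call was lost, with -1.52), and the filter on a mean of at least log2 5 added Osmr as lower (adjusted p = 0.201, between 0.201 and 0.892 over its alternatives). Against the labelled-uninduced RNP-IPs alone, leaving out 1 array gave 1 to 2 higher and 1 to 3 lower, with Osmr added without labelled-induced RNP-IP 2, Socs2 1418507_s_at without labelled-uninduced RNP-IP 2 and Socs2 1449109_at without labelled-uninduced RNP-IP 1. Between the labelled-uninduced RNP-IPs and total RNA it gave 0 to 1 higher and 1 to 2 lower (Osmr was added without either array labelled induced). Between the labelled-induced RNP-IPs and total RNA it gave 1 to 2 higher and 3 to 4 lower. Il6 was lost there without any 1 of the RNP-IPs, and a Socs4 probe set was called in its place without either array labelled induced. With the probe set of the largest difference for each gene, 2 genes were called higher and 1 lower, and Stat3 became 1.94 and Socs4 1.87, against -0.03 and -1.61. The brighter Stat3 probe set changed sign near 0, to 0.055 with cyclic loess and to 0.087 without total RNA, with the labelled-uninduced RNP-IPs alone as controls and under both blocks below (leaving out 1 array, -0.15 to 0.087). The causes of these shifts were not tested. Of the values for single probe sets and genes, 196 kept direction and call, 20 lost the call, 6 gained it and 7 changed sign. The filter on a mean of at least log2 5 left no value for Lifr, for Socs2 1446085_at and for Socs4 1421275_s_at.

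The sample titles number the replicates but do not say whether same-numbered RNP-IPs were prepared together. The deviations of same-numbered replicates correlated at -0.50 across probe sets. The arrays of low 5' Gapdh signal carry different numbers, so this correlation cannot show how the RNP-IPs were paired. With the replicate number as a block and without total RNA, 1 probe set was called higher (Stat3 1426587_a_at) and 0 lower, against 286 and 368 among all probe sets. After these correlations were seen, the crossed pairing was added as a block. It called 4 higher and 2 lower against the labelled-uninduced RNP-IPs, against 647 and 968 among all probe sets. Leaving out both arrays of low 5' Gapdh signal was added likewise and left 3 called higher and 2 lower, with no share over all probe sets given here to compare.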

Other observations

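Socs5, another brake of the pathway, had probe sets that did not run in parallel, which was noticed after the values were seen, as were the further probe sets of Jak2, Ptpn2, Pias1 and Vim named above. On 1423349_at, its brighter one, the signals were 9.20 and 9.55 in the labelled-induced RNP-IPs, 8.52 and 8.45 in the labelled-uninduced pair and 9.23 for total RNA (log2 difference 0.64, adjusted p = 0.632, not called). On 1423350_at they were 5.95 and 7.14, then 9.69 and 8.96, then 9.62, and this probe set was called lower (-2.87, adjusted p = 0.174). Gab2 and Grb2, called on their brightest probe sets, were near background on the others, with Gab2 at 3.52 to 4.32 on 2 further probe sets and Grb2 at 4.77 to 5.25 on 1. The 3 probe sets of Hnrnpd were all called lower in the labelled-induced RNP-IPs.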
